A study of Mus musculus with 12 samples.

Results

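Mice given I-BET151 were compared with mice given vehicle alone, in cells grown from paws that had met urate crystals before. The libraries were chosen by their labels and number 6 of the 12 in the series, 3 of primed paws of treated mice (in vivo libraries 1 to 3) and 3 of primed paws of vehicle mice (vehicle libraries 1 to 3). All came from BALB/c mice, an inbred laboratory strain, and every paw used was a left paw injected with monosodium urate (MSU) crystals on day 0 and again on day 9. Treated mice had 20 mg/kg of I-BET151 per day by intraperitoneal injection, begun 1 day ahead of the first crystals, and vehicle mice had injections without it. Cells freed from the paws with collagenase were pooled over 2 to 3 paws and cultured for 5 passages, and the labels date the RNA to day 18. Exposure to the inhibitor in culture is stated for another group alone. Whether the cultures of a group came from separate mice is not stated, so p-values describe the spread between these pooled cultures. The question is what BET inhibition during the crystal injections changed in the cells grown out afterwards. Of 55413 genes in the table, 16459 had a mean of at least 3 over the 12 libraries and were tested.

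BET proteins, BRD2 among them, bind acetylated lysines on histones through their bromodomains and help to bring the elongation factor P-TEFb to RNA polymerase II. I-BET151 occupies the bromodomain pocket, and genes induced by NF-kB and by interferon are known to be sensitive to such inhibitors. MSU crystals are the trigger of gout. They activate the NLRP3 inflammasome, which matures interleukin-1 beta, and the fibroblasts of the synovium answer interleukin-1 with cytokines, neutrophil-attracting chemokines and matrix-degrading proteases.

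The labels call the cells synovial fibroblasts, and the treated libraries did not all carry the markers of that cell type to the same degree. The values are regularized log2 (rlog) expression values, on which a difference of 1 is a 2-fold change. Averaged over 12 fibroblast markers such as Col1a1 and Pdgfra, the vehicle libraries 1 to 3 stood at 14.39, 14.34 and 14.83 and the in vivo libraries 1 to 3 at 13.98, 8.67 and 8.99. For 13 melanocyte markers, Tyrp1 and Pmel included, these means were 6.10, 5.99 and 5.91 in vehicle and 5.23, 13.42 and 13.35 after treatment. In vivo library 1 lay near but below the vehicle libraries in both lists, and libraries 2 and 3 were rich in pigment-cell transcripts and poor in fibroblast ones. This profile was not particular to treated mice. Libraries of non-primed paws of vehicle mice, outside this comparison, had melanocyte means of 14.77, 14.9 and 13.47. Their fibroblast means were 9.41, 10.28 and 6.01. Macrophage markers averaged 7.90, 8.19 and 8.66 in vehicle and 6.69, 3.90 and 5.18 in in vivo libraries 1 to 3. None of 8 lymphocyte markers reached a mean of 3. Of 8 neutrophil markers 2 did, S100a8 and Camp, and both fell. The others were low in vehicle too, with S100a9 at 0.99, -0.52 and -0.50 and Csf3r, the highest of them, at 2.81, 4.04 and 4.45. Whether neutrophils were present was not tested. S100a8 read 11.72, 11.18 and 10.81 in vehicle and 6.14, 6.28 and 6.68 in in vivo libraries 1 to 3, and Camp read 10.58, 10.49 and 10.92 against 5.41, 5.24 and 5.03. These 2 markers were thus as low in library 1 as in the others, beside the falls of inflammatory genes given below. In bulk RNA, fewer cells of a type and less RNA per cell cannot be told apart. Each treated library is therefore given apart. The part of cell make-up in the differences below was not tested, for library 1 included. Its macrophage and neutrophil marker means were also lower than in vehicle. The macrophage markers Lyz2 (13.79), Mrc1 (6.56) and Cx3cr1 (5.22) lay inside the vehicle range in library 1. The rest of the 13 lay below it, Cd163 only just. Cd14 stood at 7.26 there against 11.05 to 12.27 in vehicle, Csf1r at 7.58 against 9.41 to 10.1 and Ptprc at 6.25 against 7.40 to 8.22.

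**Figure D1:**
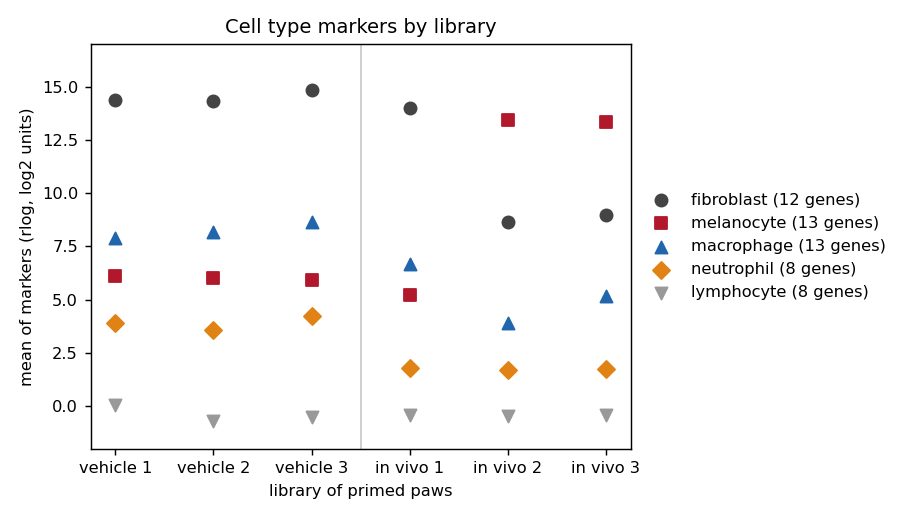
Mean rlog value over the markers of 5 cell types (y axis, log2 units) in each of the 6 libraries (x axis), 1 point per library and list. Melanocyte markers lie at 13.42 and 13.35 in in vivo libraries 2 and 3 and between 5.23 and 6.10 in the other 4.

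In vivo libraries 2 and 3 were the closest pair among the 9 libraries of primed paws, with 369 of the 16459 genes (2.24%) apart by at least 1 log2 unit. In vivo library 1 differed from them by that much in 35.8% and 36% of genes, from the vehicle libraries in 21.3% to 23.8%, and from the libraries of cells treated in culture in 4.85% to 7.12%. Libraries 2 and 3 differed from vehicle in 42.3% to 45.1% of genes, and the vehicle libraries from each other in 6.64% to 8.65%. The libraries of cells treated in culture differed from each other in 4.99% to 8.41%, about as much as in vivo library 1 differed from them.

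Against vehicle, the 3 treated libraries shared large falls of cytokine, chemokine and interferon-stimulated genes, and rises of other genes. Several of the falling genes named below were also low in the untreated libraries of non-primed paws. A gene is called here when its limma adjusted p is under 0.05, and differences are treated minus vehicle, 3 libraries against 3. In the group comparison 6531 genes (39.7%) were called, 2946 higher (17.9%) and 3585 lower (21.8%). The list counts below with all libraries are to be read beside these shares. In 8088 genes (49.1%) the groups did not overlap. A stricter description, with no test, asks that each treated library lie outside the vehicle range on the same side and at least 1 log2 unit from the vehicle mean. It was met by 1744 genes that were lower (10.6%) and 527 that were higher (3.2%), or by 1551 and 750 with median-centred libraries and 1344 and 1145 after quantile normalization, so that the excess of lower genes depended on the scaling. The number of calls rested on single libraries. Without vehicle library 1, 2 or 3 it was 4340, 3821 and 3378. Of these 1963, 1710 and 1429 were higher and 2377, 2111 and 1949 lower. Without in vivo library 1, 2 or 3 it was 9962, 2483 and 2435. Of these 4450, 1017 and 989 were higher and 5512, 1466 and 1446 lower. List counts below that leave out a library are to be read beside these counts for all genes. Median-centring the libraries gave 4029 higher and 2964 lower calls and quantile normalization 4595 and 2967, with the median difference of all genes moving from -0.05 to 0.14 and 0.19.

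Taken apart, in vivo library 1 had 190 calls (1.15%), 58 higher (0.352%) and 132 lower (0.802%), and 3783 genes (23%) had an unadjusted p under 0.05. In vivo libraries 2 and 3 had 7394 (44.9%) and 7306 (44.4%). A lone library was assumed to vary like the groups with replicates. When its spread was taken from the vehicle and in vitro groups alone, leaving out the non-primed libraries, library 1 had 1462 higher (8.88%) and 1947 lower calls (11.8%). Leaving out vehicle library 1, 2 or 3 left 97, 3 and 2 calls for library 1. Of the single genes called in it below, Cxcl10 alone kept its call in each of these 3 omissions, and none did with the replicate block. Its list counts below are therefore given as positions outside the vehicle range, which 6340 of all genes (38.5%) met below and 5971 (36.3%) above.

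**Figure D2:**
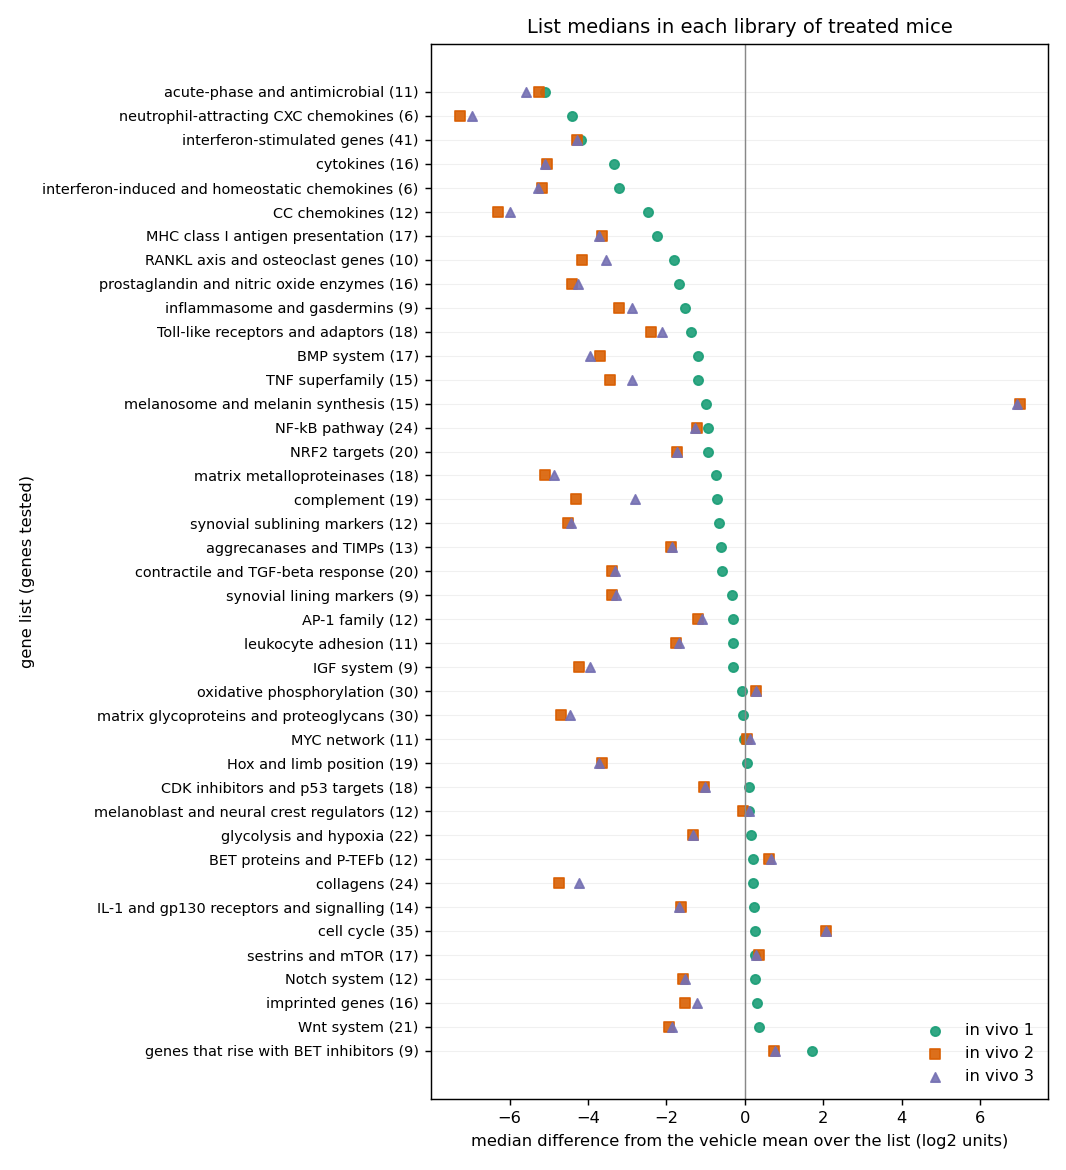
Median difference from the vehicle mean (x axis, log2 units) over the tested genes of each list (y axis, number of genes in brackets), with 1 symbol for each in vivo library. Cytokine, interferon and acute-phase lists lie well below 0 in all 3, while collagens, matrix genes and Hox genes lie near 0 in library 1 and below -3 in libraries 2 and 3.

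Genes of interleukin-1, interleukin-6, GM-CSF and G-CSF were far lower in all 3 treated libraries. Il1a, which encodes interleukin-1 alpha (chromosome 2, 129299610 to 129309972, GRCm38), stood at 11.86, 12.36 and 13.02 in vehicle libraries 1 to 3 and at 2.77, 2.71 and 2.95 in in vivo libraries 1 to 3. No treated library came near the vehicle range, and library 1 was as low as the other 2. Il1a fell by 9.60 ± 1.24 (SE; limma adjusted p = 0.0016). Il1b, the gene of interleukin-1 beta, read 8.70, 11.07 and 11.80 in vehicle and 1.82, 1.91 and 1.23 in treated libraries, and fell by 8.87 ± 0.72 (limma adjusted p = 0.000938). It was also called in library 1 apart (limma adjusted p = 0.0366). Il6 was at 14.60, 15.15 and 15.20 in vehicle and at 6.91, 5.18 and 5.36 after treatment, lowest in libraries 2 and 3, with a fall of 9.17 ± 1.15 (limma adjusted p = 0.00153). Csf2, the gene of GM-CSF, which drives myeloid growth, read 8.10, 10.51 and 10.93 in vehicle and 1.15, 1.44 and 0.64 in treated libraries. Csf3, the gene of the granulocyte factor G-CSF, read 8.26, 9.88 and 10.11 against 3.05, 1.37 and 1.11. Both fell, by 8.77 ± 0.82 and 7.57 ± 0.67 (limma adjusted p = 0.000938 for each), and both were called in library 1 apart.

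Of 16 cytokine genes tested, 14 fell and none rose, with a median difference of -4.16 beside -0.05 for all genes. The medians were -3.35, -5.05 and -5.11 in in vivo libraries 1 to 3, and 13 of the 16 lay below the vehicle range in library 1. The 2 genes not called were Il33 (-1.44) and Il18 (0.76), named here after their values were seen. Leaving out any single library left between 11 and 15 cytokine genes lower. Low levels of the genes named above were not particular to treated mice. In untreated libraries 1 to 3 of non-primed paws Il1a read 3.34, 5.86 and 1.78 and Il1b 1.61, 2.12 and 1.05. Il6 read 7.49, 9.12 and 3.94 there, Csf2 2.49, 3.90 and 0.95 and Csf3 3.04, 3.01 and 1.43.

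Neutrophil-attracting chemokines fell in 6 of 6 cases, with a median of -6.11, and all 6 lay below the vehicle range in library 1. Cxcl1 (chromosome 5, 90891241 to 90893115) read 16.11, 17.09 and 16.94 in vehicle and 12.50, 10.00 and 10.19 in treated libraries. It fell by 5.82 ± 0.65 (limma adjusted p = 0.00105), less in library 1 (-4.21) than in libraries 2 and 3 (-6.72 and -6.52), a difference between libraries that was not tested. Cxcl3 fell by 8.60 ± 1.17, Cxcl5 by 7.87 ± 1.55 and Cxcl2 by 6.40 ± 0.87. Of 12 CC chemokines 9 fell and 2 rose, and 5 fell without vehicle library 2 or 3 or in vivo library 2 or 3. Ccl3 fell by 7.18 ± 0.90, Ccl9 by 6.80 ± 1.12 and Ccl20, which attracts Th17 and dendritic cells, by 6.68 ± 1.15. The monocyte attractant Ccl2 stood at 16.57, 17.41 and 17.30 in vehicle and at 14.84, 10.36 and 10.78 in treated libraries, so that library 1 was the highest of the treated 3. Its fall of 5.10 ± 1.49 (limma adjusted p = 0.0241) was not called without vehicle library 2 or 3 or in vivo library 2 or 3, with adjusted p up to 0.0945 over the alternatives.

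The NF-kB motif searched, GGANTTTCC on either strand, lay in 4 of 19 promoter windows of the cytokine list and in 3 of 6 windows of the neutrophil chemokine list (50%), beside 1.25% of 32851 mouse promoter windows of the same length. Windows are RefSeq promoters of GRCm38.p6 from 250 bases before to 50 bases after the start, and matched 14 of 23 and 6 of 7 listed genes. The 150 bases before the start are shown for Il6 and Cxcl1, which lead their lists in known function, with the motif in capitals. Counted from the start, the match begins at position -43 in Il6 and at -70 in Cxcl1.
Il6, chr5:30012964-30013113, plus strand: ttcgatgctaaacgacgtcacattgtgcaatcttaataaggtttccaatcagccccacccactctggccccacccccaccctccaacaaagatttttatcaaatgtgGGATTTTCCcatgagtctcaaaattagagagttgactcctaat
Cxcl1, chr5:90891095-90891244, plus strand: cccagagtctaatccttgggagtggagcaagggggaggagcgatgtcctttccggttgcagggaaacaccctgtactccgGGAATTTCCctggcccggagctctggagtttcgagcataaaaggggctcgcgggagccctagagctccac

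**Figure D3:**
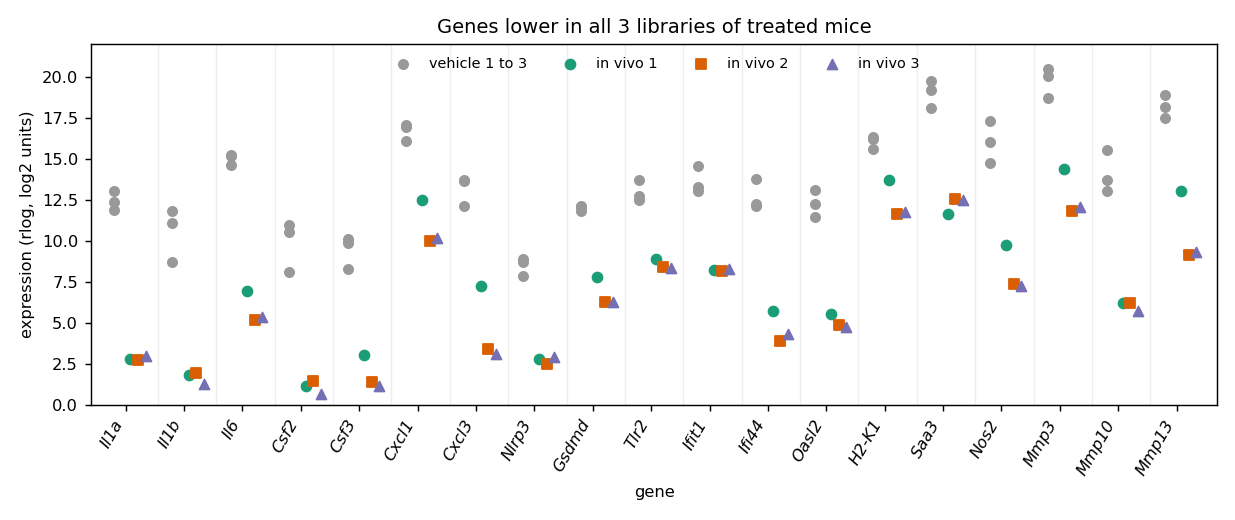
Expression (y axis, rlog in log2 units) of 19 genes (x axis) in the 3 vehicle libraries (grey) and in in vivo libraries 1, 2 and 3. For each gene shown every treated library lies below every vehicle library; Il1a is at 11.86 to 13.02 in vehicle and at 2.71 to 2.95 in treated libraries.

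Interferon-stimulated genes were low in all treated libraries, with like medians in each and single genes that differed. Of 41 tested, 38 fell and none rose, and the medians were -4.19, -4.27 and -4.28 in in vivo libraries 1 to 3. All 41 lay below the vehicle range in library 1, of which 38 were called with the spread of the vehicle and in vitro groups and 1 in the test with all groups. In 37 of them each treated library was below the vehicle range and at least 1 log2 unit under the vehicle mean. Ifit1, a sensor of viral RNA caps (chromosome 19, 34640871 to 34650009), read 13.30, 13.04 and 14.57 in vehicle and 8.21, 8.17 and 8.26 in treated libraries, which hardly differed from each other. It fell by 5.43 ± 0.87 (SE; limma adjusted p = 0.00304). Ifi44 fell by 8.09 ± 1.22, from 12.26, 12.10 and 13.79 to 5.70, 3.86 and 4.33. It read 6.86, 8.13 and 3.08 in untreated libraries 1 to 3 of non-primed paws. Oasl2 fell by 7.20 ± 1.11 and Zbp1, a sensor of Z-form nucleic acids that can start necroptosis, by 7.03 ± 1.21. Zbp1 lay at -4.68 from vehicle in library 1 and at -8.24 and -8.16 in libraries 2 and 3.

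Ifit2 and Cxcl10 went further down in library 1 than in the others. Ifit2 read 11.74, 12.08 and 11.94 in vehicle and 9.71, 11.02 and 11.10 in in vivo libraries 1 to 3, and was called in library 1 apart (-2.20, limma adjusted p = 0.0463). Cxcl10, an interferon-induced chemokine for T cells, read 10.81, 10.76 and 11.22 in vehicle, 7.42 in library 1, and 10.44 and 10.55 in libraries 2 and 3. It was called in library 1 (-3.51, limma adjusted p = 0.00225) and not in the group comparison (-1.46 ± 0.66, limma adjusted p = 0.0967). The difference between the treated libraries was not tested. Untreated libraries of non-primed paws read 12.12, 12.06 and 11.20 for Ifit2 and 10.59, 10.64 and 10.47 for Cxcl10.

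Motif GAAANNGAA, the core of the interferon-stimulated response element, was found on either strand in 21 of 34 promoter windows of this list (61.8%) and in 8.56% of all windows, with 29 of the 41 genes matched to RefSeq. The stretch before the Ifit1 start is shown because it holds 3 overlapping or neighbouring matches, at positions -109 to -84 from the start, in capitals. They lie on the minus strand and so read as their reverse complement.
Ifit1, chr19:34640739-34640888, plus strand: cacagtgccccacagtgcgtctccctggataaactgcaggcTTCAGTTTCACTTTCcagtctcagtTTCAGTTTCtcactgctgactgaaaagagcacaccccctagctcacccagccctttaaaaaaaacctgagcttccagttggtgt

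Antigen presentation by MHC class I, which interferon also induces, was lower throughout. All 17 genes tested fell, with medians of -2.24, -3.65 and -3.71 in in vivo libraries 1 to 3, and all 17 lay below the vehicle range in library 1. H2-K1, a classical class I heavy chain, read 16.22, 15.57 and 16.35 in vehicle and 13.72, 11.65 and 11.75 in treated libraries, and fell by 3.67 ± 0.73 (SE; limma adjusted p = 0.00639). Psmb8, an immunoproteasome subunit, fell by 6.24 ± 1.09. The falls of H2-Q6 (6.83 ± 1.17) and H2-Q7 (6.29 ± 1.21) are uncertain, since these near-identical genes can share reads.

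Inflammasome genes were lower in part. Nlrp3, the sensor that MSU crystals engage, read 7.82, 8.69 and 8.89 in vehicle and 2.78, 2.46 and 2.89 in treated libraries, with little spread between the treated 3. Nlrp3 was also low in untreated libraries of non-primed paws, at 3.71, 4.01 and 2.53. It fell by 5.76 ± 0.43 (limma adjusted p = 0.000938) and was called in library 1 apart. Gsdmd, the gene of the pore-forming gasdermin D, read 11.81, 12.10 and 12.07 against 7.79, 6.23 and 6.29, and fell by 5.23 ± 0.58 (limma adjusted p = 0.00105). Of 9 inflammasome and gasdermin genes 5 fell (55.6%, beside 21.8% of all genes) and 1 rose. Of the 9, 2 fell without in vivo library 2 or 3 and 3 without vehicle library 1. Casp4, a caspase that cuts gasdermin D, fell by 4.19 ± 1.09 (limma adjusted p = 0.016), a call lost without in vivo library 2 or 3 (adjusted p up to 0.0683). Among 18 Toll-like receptors and adaptors 15 fell and none rose, and 9 and 10 fell without in vivo library 2 and 3 and 10 without vehicle library 3. Tlr2 fell by 4.43 ± 0.46, with 8.89, 8.40 and 8.32 in treated libraries and at least 12.50 in vehicle, and was called in library 1. Cd14, a co-receptor of Toll-like receptors that is also a macrophage marker, fell by 5.87 ± 0.90, and the macrophage marker means given above were lower in the same libraries.

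In the NF-kB list 17 of 24 genes fell and none rose, with medians of -0.95, -1.22 and -1.26 in libraries 1 to 3. The list held 21 genes below the vehicle range in library 1. Tnip3, a feedback inhibitor, fell by 6.11 ± 0.64 from 8.91, 9.20 and 9.08 to 3.10, 3.13 and 2.63. Traf1, a signalling adaptor, fell by 5.49 ± 0.60 and Birc3, an inhibitor of apoptosis, by 4.04 ± 0.73. Tnip3 and Traf1 were called in library 1 apart. The receptor subunit Il1rap fell by 1.32 ± 0.14, with 11.62, 11.58 and 11.68 in treated libraries and 12.82 to 13.04 in vehicle. Il1r1, the signalling receptor of interleukin-1, behaved otherwise, with 9.60, 10.14 and 10.13 in vehicle, 10.00 in library 1 and 4.43 and 4.37 in libraries 2 and 3. Its group fall of 3.69 ± 1.26 (limma adjusted p = 0.0405) was lost without any vehicle library or in vivo library 2 or 3 (adjusted p up to 0.154).

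Most acute-phase genes, and most genes of a list of prostaglandin and nitric oxide enzymes and prostaglandin receptors, fell. Saa3, an acute-phase protein, stood at 18.12, 19.19 and 19.75 in vehicle libraries and at 11.64, 12.54 and 12.49 after treatment. It fell by 6.79 ± 1.35 (limma adjusted p = 0.00622), and library 1 was the lowest of the 3. Untreated libraries of non-primed paws read 10.97, 13.43 and 7.36 for Saa3. Hp (haptoglobin) fell by 6.13 ± 1.19 and Saa2 by 5.68 ± 0.59. Of 11 acute-phase and antimicrobial genes 10 fell, with medians of -5.10, -5.24 and -5.58 in libraries 1 to 3, and 9 of the 11 met the stricter description of each treated library being low. Nos2, the inducible nitric oxide synthase, read 14.72, 16.04 and 17.30 in vehicle and 9.73, 7.36 and 7.24 in treated libraries, and fell by 7.91 ± 1.08. Arg2, an arginase that uses the same substrate, fell by 5.81 ± 0.62. Of 16 genes of the prostaglandin and nitric oxide list 12 fell and 1 rose, Ptgds (6.19 ± 2.12, limma adjusted p = 0.0412). Ptgds read 2.86 in library 1 and 12.93 and 12.73 in libraries 2 and 3. The stricter description was met by 10 of the 16. The Ptgds call was lost without any vehicle library or in vivo library 2 or 3 (adjusted p up to 0.157).

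Matrix metalloproteinases divided into a group low in every treated library and a group low in libraries 2 and 3. Of 18 tested, 10 fell and none rose, with medians of -0.73 in library 1, -5.10 in library 2 and -4.88 in library 3. Each treated library was low in 8 of them, and 17 fell without in vivo library 1. Mmp3, or stromelysin (chromosome 9, 7445822 to 7455975), read 18.72, 20.07 and 20.47 in vehicle and 14.34, 11.81 and 12.05 in treated libraries, and fell by 7.01 ± 1.33 (SE; limma adjusted p = 0.0054). Mmp13, a collagenase (chromosome 9, 7272514 to 7283331), read 17.47, 18.18 and 18.91 against 13.06, 9.16 and 9.32, and fell by 7.67 ± 1.49 (limma adjusted p = 0.00588). Library 1 was higher than libraries 2 and 3 in both genes and still more than 4 log2 units under the lowest vehicle library. Mmp10 fell by 8.04 ± 1.31 and its 3 treated values, 6.21, 6.20 and 5.71, lay close together. In untreated libraries of non-primed paws Mmp13 read 10.12, 12.36 and 5.93 and Mmp10 6.38, 8.48 and 2.65. Mmp1b, at 0.86, 0.62 and 0.94 after treatment, fell by 7.13 ± 0.76 and was called in library 1. The proteases Adamts7 and Adamts6 fell by 2.79 ± 0.34 and 2.69 ± 0.35. Timp1, an inhibitor of these proteases, was at 17.11 in library 1, inside the vehicle range, and at 12.00 and 12.43 in libraries 2 and 3.

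An AP-1 site, TGANTCA, was present in 6 of 17 windows of the metalloproteinase list (35.3%) and in 7.81% of all windows, with 15 of 20 genes matched. This motif reads the same on both strands. It begins at position -46 from the start of Mmp3 and at -35 from that of Mmp13, shown in capitals for these 2 genes because their proteases degrade the matrix of the joint.
Mmp3, chr9:7445672-7445821, plus strand: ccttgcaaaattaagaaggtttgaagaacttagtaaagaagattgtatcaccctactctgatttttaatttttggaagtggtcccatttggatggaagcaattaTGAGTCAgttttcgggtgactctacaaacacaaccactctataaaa
Mmp13, chr9:7272364-7272513, plus strand: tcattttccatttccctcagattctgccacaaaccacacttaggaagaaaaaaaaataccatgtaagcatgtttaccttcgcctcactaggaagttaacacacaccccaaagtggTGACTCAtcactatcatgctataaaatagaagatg

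The AP-1 subunit gene Fosl1 fell by 5.09 ± 1.19 (limma adjusted p = 0.011), from 12.80, 13.18 and 13.33 to 9.97, 6.86 and 7.19. Of 12 AP-1 family genes 4 fell, beside 21.8% of all genes, and none rose. The number was 1 without in vivo library 2 or 3, where 1466 and 1446 of all genes were lower, beside 3585 with every library. Tnfsf11, the gene of RANKL, which drives osteoclast formation, read 9.88, 9.32 and 9.72 in vehicle and 6.51, 1.75 and 1.49 in treated libraries. It fell by 6.39 ± 1.14 (limma adjusted p = 0.00418), with library 1 between vehicle and libraries 2 and 3. Its decoy receptor Tnfrsf11b fell by 4.12 ± 0.94, and 9 of 10 genes of the RANKL and osteoclast list fell. Leaving out a vehicle library, or in vivo library 2 or 3, left 3 or 4 of them called. Of 19 complement genes 10 fell (52.6%, beside 21.8% of all genes), with Cfb at -4.88 ± 0.78. The number was 3 without in vivo library 2 or 3 and 17 without library 1, and 4 without vehicle library 2 or 3. Adhesion molecules fell in 6 of 11 cases (54.5%, beside 21.8% of all genes), and in 3 without in vivo library 2 or 3. Vcam1 fell by 4.82 ± 0.92.

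The largest falls shared by all 3 treated libraries, ranked by the smallest of the 3 single-library differences, were those of Il1a, Il1b, Csf2, Il6, Mmp10, Ifi44, Mmp1b, Trdc, Oasl2 and Gpr84. Gpr84, a receptor of medium-chain fatty acids on inflammatory cells, read 6.99, 9.49 and 8.82 in vehicle and 1.03, 0.77 and 1.77 after treatment. Trdc is the constant region of the T-cell receptor delta chain, and read 12.68, 12.35 and 13.24 in vehicle and 4.88, 5.98 and 5.69 after treatment, a fall of 7.24 ± 1.32 (limma adjusted p = 0.00465). The lymphocyte markers stood beside it at means between -0.68 and 0.06 in all 6 libraries, and Cd3e was below 0 in each.

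Among the genes that rose were regulators of transcription elongation. Hexim1, whose product holds P-TEFb inactive and which is a common reporter of BET inhibition (chromosome 11, 103116231 to 103119725), read 12.39, 12.19 and 11.98 in vehicle and 13.90, 14.23 and 14.18 in treated libraries. It rose by 1.92 ± 0.45 (SE; limma adjusted p = 0.0109), and the groups did not overlap. Brd2, a target of the inhibitor, read 14.63, 14.61 and 14.67 against 16.99, 16.00 and 16.02, highest in library 1, and rose by 1.70 ± 0.38 (limma adjusted p = 0.00929). Of 12 BET and P-TEFb genes 5 rose (41.7%, beside 17.9% of all genes) and none fell, with a median of 0.43. Without in vivo library 2 or 3, 2 rose, and 8 rose without library 1. Of 9 genes known to rise with BET inhibitors 4 rose (44.4%), or 2 without any 1 of the vehicle libraries or in vivo library 2 or 3. All 9 lay above the vehicle range in library 1, beside 36.3% of all genes. Their median was 1.71 there, against 0.74 and 0.78 in libraries 2 and 3.

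The stress-induced sestrins, which restrain mTOR signalling, moved unequally. Sesn3 read 11.87, 12.19 and 12.38 in vehicle and 13.98, 14.22 and 14.26 in treated libraries, and rose by 2.00 ± 0.27 (limma adjusted p = 0.00174). Sesn1 rose by 1.60 ± 0.25 (limma adjusted p = 0.00274), with 10.45, 11.12 and 11.22 against at most 9.49 in vehicle. Sesn2 did not pass (-0.67 ± 0.36, limma adjusted p = 0.156), with 12.32 in library 1 inside the vehicle range. Mtor itself changed little, by 0.38 ± 0.14 (limma adjusted p = 0.0477), and lost its call in 10 of 16 alternatives, each of the 6 single-library omissions among them (adjusted p up to 0.13).

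Ranked by the smallest single-library difference, the rises shared by all treated libraries were led by Ankmy1, Strip2, Fam222a, Peg10, Atp8a1, B3galt1, Plcl1, Cdh6, Hist1h3g and Nupr1l. Ankmy1, a protein of ankyrin repeats, read 4.93, 4.80 and 4.04 in vehicle and 8.60, 8.54 and 8.57 in treated libraries, and rose by 3.98 ± 0.60 (limma adjusted p = 0.00252). Peg10, an imprinted gene of retroviral origin, read 9.83, 8.88 and 9.31 against 12.76, 14.98 and 15.06, lower in library 1, and rose by 4.93 ± 0.88 (limma adjusted p = 0.00429). Plcl1 was as even as Ankmy1, at 9.63, 9.70 and 9.73 after treatment and 6.54 to 7.14 in vehicle. Strip2 rose by 4.96 ± 1.05, Atp8a1, a phospholipid flippase, by 3.71 ± 0.54 and B3galt1, a galactosyltransferase, by 3.14 ± 0.46. Such levels were not particular to treated mice. In untreated libraries 1 to 3 of non-primed paws Ankmy1 read 6.34, 5.76 and 8.46 and Peg10 11.55, 12.18 and 15.14. Plcl1 read 8.58, 7.95 and 9.76 there. For these genes non-primed library 3 thus lay near in vivo libraries 2 and 3, and non-primed libraries 1 and 2 lay lower. The calls of Hist1h3g and Cdh6 were lost without some libraries, Hist1h3g without any vehicle library or in vivo library 2 or 3 (adjusted p up to 0.0953) and Cdh6 without vehicle library 3 or in vivo library 3 (up to 0.0522).

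**Figure D4:**
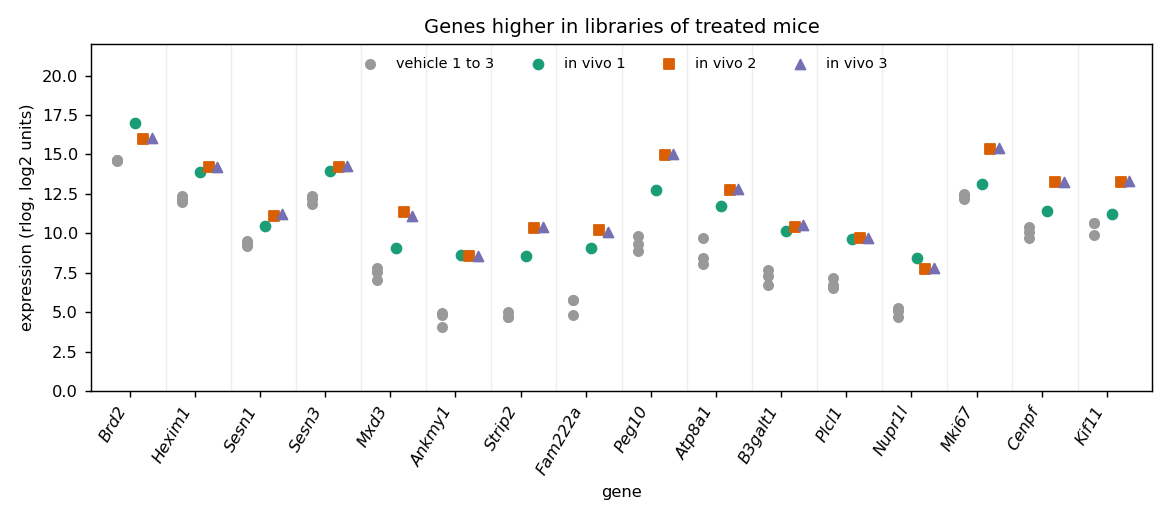
Expression (y axis, rlog in log2 units) of 16 genes (x axis) in the 3 vehicle libraries (grey) and in in vivo libraries 1, 2 and 3. Hexim1 lies at 13.90 to 14.23 in treated libraries and 11.98 to 12.39 in vehicle, and Mki67 at 13.10 in library 1 and above 15 in libraries 2 and 3.

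Cell cycle genes were higher mainly in libraries 2 and 3. Of 35 tested, 26 rose (74.3%, beside 17.9% of all genes) and none fell. The medians were 0.25 in library 1, 2.06 in library 2 and 2.06 in library 3. In library 1, 20 of the 35 lay above the vehicle range, beside 36.3% of all genes. Mki67, a marker of dividing cells, read 12.28, 12.48 and 12.20 in vehicle and 13.10, 15.36 and 15.43 in treated libraries, and rose by 2.31 ± 0.51 (limma adjusted p = 0.009). Cenpf, a kinetochore protein, rose by 2.55 ± 0.45 and the spindle motor Kif11 by 2.21 ± 0.49. Without in vivo library 2 or 3, 5 of the 35 rose, and without vehicle library 1, 2 or 3 the number was 15, 18 and 8. It was 3 with only the 6 libraries compared. Melanocyte marker means, given above, were high in the same 2 libraries, and the part of cell make-up in this rise was not tested. Among inhibitors of the cycle, Cdkn1a (p21) fell by 2.13 ± 0.57 (limma adjusted p = 0.0178), a call lost without vehicle library 3 or in vivo library 2 or 3 (adjusted p up to 0.0736). Cdkn2a did not pass (-2.28 ± 1.42, limma adjusted p = 0.209), with 12.28 in library 1, inside the vehicle range of 11.75 to 12.47, and 8.10 and 8.75 in libraries 2 and 3.

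Structural fibroblast genes were low in libraries 2 and 3, and in library 1 some lay within or above the vehicle range and others below it. Col1a1, the main fibrillar collagen gene (chromosome 11, 94936224 to 94953042), read 17.89, 18.18 and 18.63 in vehicle, 18.39 in library 1, and 11.80 and 12.36 in libraries 2 and 3. It did not pass (-4.04 ± 1.67, limma adjusted p = 0.0749). The collagen list had medians of 0.21, -4.75 and -4.23 in libraries 1 to 3. Of its 24 genes 6 were called lower (25%), a share near the 21.8% of all genes. Without in vivo library 1 the number was 20, without library 2 or 3 it was 1, and without vehicle library 1, 2 or 3 it was 2, 3 and 2. The same held for 30 matrix glycoproteins and proteoglycans, with medians of -0.04, -4.70 and -4.45. Of these 10 were lower (33.3%, beside 21.8% of all genes), 28 without library 1 and 0 without library 2 or 3 or vehicle library 3. Several members were also below vehicle in library 1, by less than in libraries 2 and 3. Col5a3 lay at -1.37, -4.53 and -4.39 from vehicle in libraries 1 to 3, Col14a1 at -2.02, -4.49 and -4.16, Tnc at -1.76, -7.10 and -6.78 and Lum at -1.69, -6.80 and -6.65. Dcn, the gene of decorin, named after its values were seen, read 16.86, 16.18 and 17.16 in vehicle and 13.19, 11.47 and 11.61 after treatment. Fibroblast marker means were 13.98, 8.67 and 8.99 in the same libraries.

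Contractile genes were low in libraries 2 and 3 and slightly low in library 1. Acta2, or smooth muscle actin, read 16.55, 16.63 and 16.48 in vehicle, 16.07 in library 1 and 9.22 and 9.75 in libraries 2 and 3. Its fall of 4.88 ± 1.74 (limma adjusted p = 0.0472) was lost without any vehicle library or in vivo library 2 or 3, with adjusted p up to 0.172. Of 20 contractile and TGF-beta response genes 13 fell, or 3 and 2 without in vivo library 2 and 3 and 6 or 7 without 1 vehicle library. In library 1, 14 of the 20 lay below the vehicle range, beside 38.5% of all genes. The list median there was -0.58, and Myl9, a myosin light chain, lay at -1.37. Prg4, the gene of the joint lubricant lubricin made by the lining layer, was at 16.08 in library 1, inside the vehicle range, and at 12.00 and 11.97 in libraries 2 and 3. Thy1, a sublining marker, was at 15.08 in library 1, above all vehicle libraries, and at 8.01 and 8.30 in the others. Neither passed (limma adjusted p = 0.172 and 0.096). Limb-position genes of the Hox list had a median of 0.04 in library 1 and of -3.65 and -3.73 in libraries 2 and 3. Hoxd13, expressed in the paw, was called higher in library 1 (13.99 against 12.06 to 12.25, limma adjusted p = 0.0375) and lay at 10.32 and 10.29 in the others.

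Pigment-cell genes were high in libraries 2 and 3. Melanocyte marker means were also high in the untreated libraries of non-primed paws (14.77, 14.9 and 13.47). Tyrp1, a melanin synthesis enzyme (chromosome 4, 80834123 to 80851719), read 5.46, 5.66 and 6.03 in vehicle, 3.98 in library 1 and 17.45 and 17.44 in libraries 2 and 3. The group difference of 7.24 ± 2.82 did not pass (limma adjusted p = 0.0625). Its treated libraries lay on both sides of the vehicle range. Pmel, a melanosome fibre protein, rose by 6.76 ± 1.98 (limma adjusted p = 0.0242), with 8.12 in library 1 just above the vehicle maximum of 8.10. That call was lost without any vehicle library or in vivo library 2 or 3 (adjusted p up to 0.103). Of 15 melanosome genes 5 rose and 1 fell, and the medians were -0.98, 7.03 and 6.94. The number that rose was 14 without in vivo library 1, 0 without library 2 or 3, and 1 or 2 without 1 vehicle library. In library 1, 11 of the 15 lay below the vehicle range. Mitf, the master transcription factor of melanocytes, which macrophages and osteoclasts also use, was called lower in library 1 (10.31 against 12.06 to 12.74, limma adjusted p = 0.0366) and stood at 14.32 in libraries 2 and 3.

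The M-box TCATGTG, a site of the MITF family, was present in 6 of 12 promoter windows of the melanosome list (50%) and in 3.77% of all windows, with 10 of 15 genes matched. It begins at position -47 from the start of Tyrp1, shown here with the motif in capitals as an example of a pigment gene.
Tyrp1, chr4:80834063-80834212, plus strand: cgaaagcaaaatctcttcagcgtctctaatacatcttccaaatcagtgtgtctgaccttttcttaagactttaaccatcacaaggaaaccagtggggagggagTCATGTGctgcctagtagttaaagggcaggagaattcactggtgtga

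**Figure D5:**
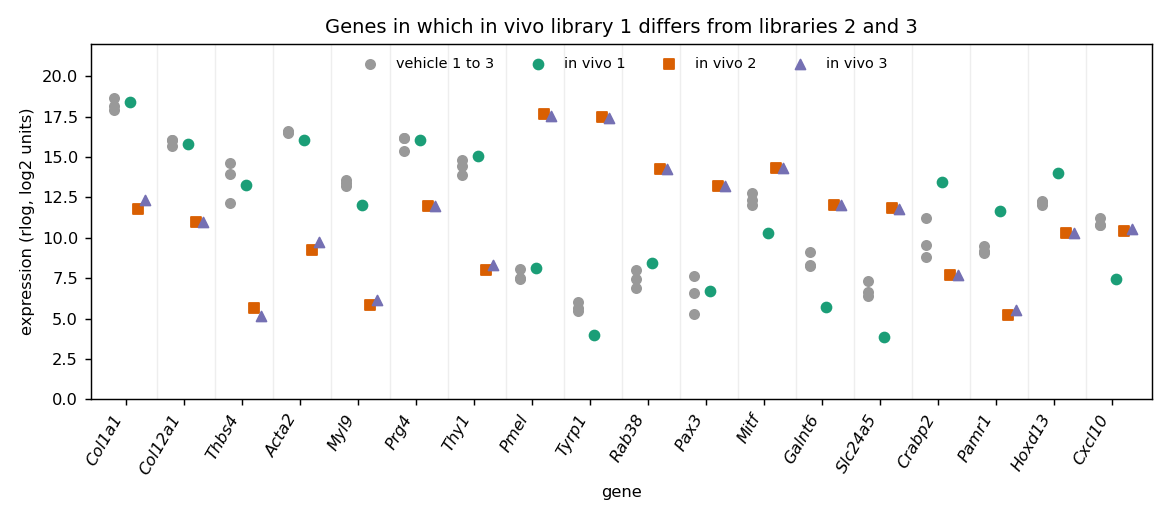
Expression (y axis, rlog in log2 units) of 18 genes (x axis) in the 3 vehicle libraries (grey) and in in vivo libraries 1, 2 and 3. Col1a1 lies at 18.39 in library 1 and at 11.80 and 12.36 in libraries 2 and 3, and Tyrp1 at 3.98 and at 17.45 and 17.44.

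Some well-expressed genes moved in opposite directions in library 1 and in libraries 2 and 3. Lower in library 1 and higher in the other 2 were Tyrp1, Slc24a5, Galnt6, Nppb and Mitf. Galnt6, which starts O-glycans, read 8.32, 8.24 and 9.13 in vehicle, 5.70 in library 1 and 12.05 and 12.04 in libraries 2 and 3. Nppb, the gene of a natriuretic peptide, read 8.14, 7.48 and 8.19 against 5.21, 10.97 and 10.96. Higher in library 1 and lower in the others were Pamr1, Tenm3, Crabp2, Afap1l2 and Gda. Crabp2, a retinoic acid carrier, read 11.22, 8.78 and 9.56 in vehicle, 13.44 in library 1 and 7.67 and 7.70 in libraries 2 and 3. These genes were picked for the opposite signs, so the pattern is a description with no test.

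The largest rises called in library 1 apart included those of Hist1h4m, Rflna, Dcst2, Mfsd13b, Hist1h4k, Fam186a and Rab40b. Hist1h4m, a replication-dependent histone gene, read 4.47, 3.71 and 4.83 in vehicle, 7.99 in library 1 and 3.84 and 4.20 in libraries 2 and 3. Histone H4 genes are close copies that can share reads, so their values are uncertain. Dcst2 and Mfsd13b rose in the group comparison too, by 1.63 ± 0.53 and 1.91 ± 0.47, the Dcst2 call being lost without any vehicle library or in vivo library 3 (adjusted p up to 0.115). Prdm1, a repressor known from plasma cells, and Acod1, which makes itaconate in inflamed myeloid cells, were among the largest falls of library 1 (-5.97 and -6.66) and fell in the group comparison by 4.53 ± 0.88 and 6.83 ± 0.69.

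Of 20 targets of NRF2, which governs the response to oxidants, 14 fell (70%, beside 21.8% of all genes) and none rose. Slc7a11, the cystine carrier, read 14.80, 15.33 and 14.30 in vehicle and 10.07, 10.54 and 10.81 in treated libraries. It fell by 4.33 ± 0.89 (limma adjusted p = 0.00699), and Gsta3 by 4.90 ± 0.74. Without in vivo library 2 or 3, 8 NRF2 targets fell. Myc fell by 1.26 ± 0.33 (limma adjusted p = 0.0165), with 11.51 in library 1 and 10.49 in both libraries 2 and 3 against 11.77 to 12.27 in vehicle. The Myc call was lost without vehicle library 2 or 3 or in vivo library 2 or 3 (adjusted p up to 0.0709). Its antagonist Mxd3 rose by 3.05 ± 0.50 and its relative Mycl fell by 3.12 ± 0.47, both in the same direction in every treated library.

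Among secreted regulators, the bone morphogenetic protein gene Bmp2 read 11.70, 9.82 and 10.68 in vehicle and 5.17, 5.44 and 4.49 after treatment, and fell by 5.70 ± 1.37 (limma adjusted p = 0.0119). Of the BMP list 9 of 17 genes fell (52.9%, beside 21.8% of all genes), and 3 fell without in vivo library 2 or 3. Cd40, a co-stimulatory receptor, was even across treated libraries at 5.61, 5.44 and 5.59 and fell by 3.82 ± 0.66. The TNF family ligand Tnfsf15 fell by 5.40 ± 0.67. The Notch ligand Dll1 and the receptor Notch4 fell by 2.42 ± 0.44 and 2.11 ± 0.41, while Dll4 rose by 1.55 ± 0.35. Few oxidative phosphorylation genes were called, with 3 of 30 genes higher, 2 lower and a median of 0.16, and 13 were higher with median-centred libraries and 16 without in vivo library 1. Glycolysis and hypoxia genes had a median of 0.15 in library 1 and of -1.32 in libraries 2 and 3. In the group comparison 5 of 22 fell, a share near the 21.8% of all genes, and 1 fell without in vivo library 2 or 3 or vehicle library 3 and 12 without library 1. Egln3, a hypoxia-induced oxygen sensor, fell by 3.40 ± 0.59 (limma adjusted p = 0.0038).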

How the data were processed

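Per the submitters' processing notes, reads were trimmed with cutadapt 1.18, aligned with STAR 2.6.1c to GRCm38, counted with featureCounts (Subread 1.6.1) and transformed with DESeq2 1.24.0. The deposited table holds the authors' regularized log2 (rlog) values, from -2.24 to 20.6, for 55413 genes in 12 libraries, of which 19136 had the value 0 throughout. The rlog transform shrinks weakly expressed genes and keeps no read depth, so depth is unknown. No source used here gives the annotation, the strand setting or the rlog options, so overlapping and antisense genes may share reads. Genes with a mean rlog of at least 3 were fitted with limma 3.58.1 (R 4.3.3; empirical Bayes with a mean-variance trend) over 12 libraries in 4 groups, and p-values were Benjamini-Hochberg adjusted over 16459 genes. A second fit gave each treated library its own term. The fits were tested on simulated data, with independent genes and the same change added to all treated libraries. That setting lacks the unlike make-up of the treated libraries, so it cannot show how the fits perform on these data. A rank test of 3 against 3 cannot go below an exact p of 0.1, so none was used.

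Genes were named by rule: the largest called differences, those shared by all treated libraries, in library 1 apart and within each list, the largest opposite differences, and a short list reported whatever its result. Some genes the rule names are not reported here. The members, lists and rule were chosen with earlier results of these data known, and the promoters shown were chosen after the motif search. Gene coordinates are of GENCODE on GRCm38. Figures were drawn with matplotlib 3.10.9.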

Additional observations from a re-analysis of the deposited data

How the results depend on the processing

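The number of genes called in the group comparison was 6531, and was 3950 with only the 6 libraries compared and 12582 with array weights. Leaving out 1 library gave between 2435 and 9962. It was 6946 with only the 9 libraries of primed paws, an alternative chosen after seeing the data. For in vivo library 1 apart the 190 calls became 996 with no filter, 23 with a mean rlog of at least 5, 678 with quantile normalization and 3409 with the spread of the vehicle and in vitro groups, and 2 to 97 when 1 vehicle library was left out. The number of genes beyond the vehicle range in every treated library was 2271 and ran from 1624 to 3400 under the filters and from 2231 to 6656 when 1 library was left out; its lower genes numbered 1744, 1551 and 1344 and its higher genes 527, 750 and 1145 as deposited, median-centred and quantile normalized. With a replicate block the group comparison had 5977 calls, and the single-gene calls of library 1 were lost. Deviations of same-numbered libraries from their group means correlated at -0.06, 0.11 and -0.15, and those of unlike numbers at -0.15 to 0.16. In vivo library 1 differed widely from libraries 2 and 3, so these correlations cannot decide whether the numbers pair the samples. Of 177 named genes 155 were called in the group comparison, 89 of them in every one of 16 alternatives, and 0 changed sign. The causes of these changes were not tested. Read depth is unknown, and cell make-up differs between the treated libraries.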
